A study of Mus musculus with 10 samples.

Results

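Histone lactylation and acetylation were examined at the genes that carry the light response of cones, the photoreceptors of daylight and colour vision. The genes were Opn1sw, Arr3, Gnat2, Pde6c, Pde6h, Cnga3, Cngb3, Gngt2 and Gnb3, and every peak assigned to 1 of these 9 symbols was taken, whatever its value. This gave 29 of the 108253 peaks in the deposited table, 12 of them promoter peaks (of 17144) and 17 lying elsewhere in or near the genes. Retinas came from wild-type C57Bl/6J mice at postnatal day 28 and were kept as explants for 48 hours in medium with 5 mM or 25 mM glucose. CUT&Tag, in which an antibody brings a transposase to a modified histone so that the cut fragments mark its place, was run on 500000 cells per assay. H3K18La (lactylation of lysine 18 of histone H3) was measured in 3 libraries per glucose level and H3K27Ac (acetylation of lysine 27) in 2, and the labels place all 10 libraries in batch 1.

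In a cone, light absorbed by an opsin activates the G protein transducin, transducin releases the inhibitory subunits of phosphodiesterase 6, and the fall in cyclic GMP closes a cation channel of the outer segment. Cones use their own version of nearly every protein in this chain, each a paralogue of the protein that rods use. Cones are a small minority of the photoreceptors of the mouse retina, so whole-retina chromatin holds few copies of their active loci. In such bulk samples, fewer cells of a type and less of a mark per cell cannot be told apart.

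Values are RPKM, the usual scaling of the reads in a peak by its length in kilobases and by the size of the library, and sums over several peaks are RPM, scaled by library size only. The denominators of the RPKM values were 1358008 to 7424470 reads, and all 29 peaks together held 47 to 491 reads in an H3K18La library and 147 to 1163 in an H3K27Ac library. The share of each denominator that fell in the 108253 peaks also moved with glucose, from 11.8% to 12% of reads at 5 mM to 31.2% to 35.0% at 25 mM for H3K18La, and from 21.1% and 31.5% to 69.5% and 56.5% for H3K27Ac. Over all peaks tested the median log2 difference was 1.10 for H3K18La and 0.84 for H3K27Ac, so differences at the cone genes are given beside those medians. The table has as many peaks as the set the study merged from H3K18La in retinas of different ages, and the sources used here do not give whether peaks called in these explants, or for H3K27Ac, entered it. Libraries of the same group were never as alike as counting error alone would make them. Since the labels do not say that the libraries of a group came from separate animals, p-values measure only the spread between these libraries.

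The peaks of the 9 genes were unevenly placed. Cnga3 and Cngb3 had 6 peaks each, Pde6c had 5, Opn1sw had 3, Gnat2, Arr3, Pde6h and Gngt2 had 2 each, and Gnb3 had a single peak. Of the 39 transcription starts that GENCODE M21 (GRCm38) gives for these genes, 26 lay inside a peak assigned to the same gene. None of the 4 starts of Pde6h was covered. Its stronger peak, chr6:136952148-136953851, was annotated as intronic 28316 bases downstream of a far upstream start, and it ended 672 bases before the next start of the gene. Of the 7 starts of Gngt2, 4 lay in a neighbouring peak that the authors assigned to Abi3, chr11:95841511-95842737, so that the Gngt2 peaks do not hold all of the signal at its starts. In that neighbouring peak the H3K18La values were 1.16, 1.26 and 0 RPKM at 5 mM and 0.829, 2.61 and 1.10 at 25 mM, and the H3K27Ac values were 0.188 and 0.919 against 1.70 and 1.98. The Gnb3 peak, chr6:124839144-124841484, was 2341 bp wide and overlapped the neighbouring gene P3h3 as well.

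**Figure D1:**
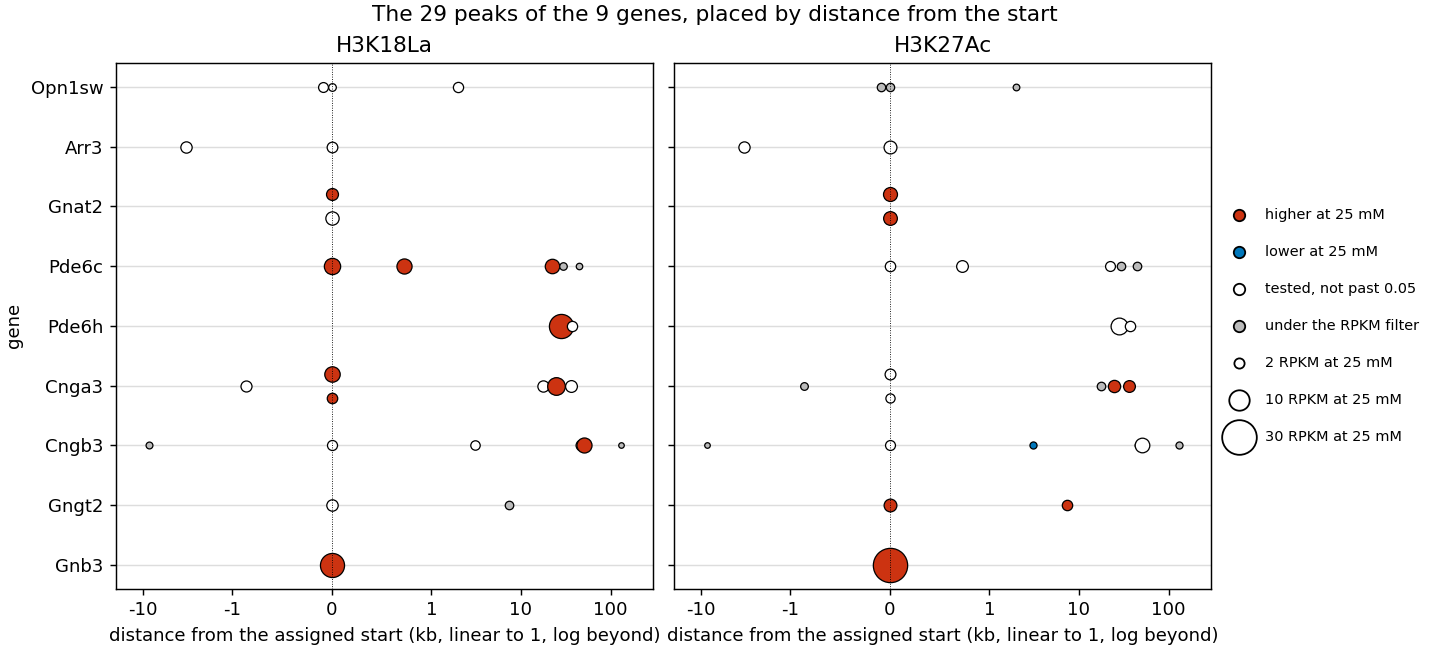
Each circle is 1 of the 29 peaks, placed by its distance in kb from the transcription start it was assigned to (linear to 1 kb, logarithmic beyond), in 1 panel per mark, with area growing with the mean RPKM at 25 mM glucose and colour giving the outcome of the limma test of 25 against 5 mM. The Gnb3 start and the Pde6h intron hold the strongest signal, and the peaks that passed the test lie both at starts and inside Pde6c, Cnga3, Cngb3, Pde6h and Gngt2. Peaks at the same start are set slightly apart vertically.

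RefSeq promoter windows (250 bases before to 50 after a start, GRCm38.p6) were at hand for 5 of the 9 genes, namely Opn1sw, Arr3, Gnat2, Pde6h and Cnga3, the last with 2 windows. Pde6c, Cngb3, Gngt2 and Gnb3 had no window in the table used. The 4 windows that lie wholly inside a peak are shown because the values below were read over them. They are chr6:29380464-29380763 on the minus strand for Opn1sw, chrX:100605247-100605546 on the plus strand for Arr3, chr3:108092816-108093115 on the plus strand for Gnat2, and chr1:37218955-37219254 on the plus strand for the more downstream start of Cnga3. Capitals mark TAATCC (the homeodomain site of CRX and OTX2, the regulators of photoreceptor genes), its variant TAATCT (added after the sequences were seen), AGGTCA (the core bound by nuclear receptors such as RORB and the thyroid hormone receptor THRB) and GGGCGG (a GC box), on either strand.
Opn1sw: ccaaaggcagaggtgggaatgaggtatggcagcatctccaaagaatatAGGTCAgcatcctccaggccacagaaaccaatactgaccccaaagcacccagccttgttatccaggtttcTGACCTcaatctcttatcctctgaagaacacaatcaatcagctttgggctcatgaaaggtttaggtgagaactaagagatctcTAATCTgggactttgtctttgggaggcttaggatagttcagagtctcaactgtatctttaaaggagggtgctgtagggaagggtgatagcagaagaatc
Arr3: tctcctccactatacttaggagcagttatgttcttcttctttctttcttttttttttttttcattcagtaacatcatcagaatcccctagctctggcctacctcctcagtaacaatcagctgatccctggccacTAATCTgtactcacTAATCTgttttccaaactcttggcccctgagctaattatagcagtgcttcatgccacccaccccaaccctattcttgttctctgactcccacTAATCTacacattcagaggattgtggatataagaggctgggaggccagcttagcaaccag
Gnat2: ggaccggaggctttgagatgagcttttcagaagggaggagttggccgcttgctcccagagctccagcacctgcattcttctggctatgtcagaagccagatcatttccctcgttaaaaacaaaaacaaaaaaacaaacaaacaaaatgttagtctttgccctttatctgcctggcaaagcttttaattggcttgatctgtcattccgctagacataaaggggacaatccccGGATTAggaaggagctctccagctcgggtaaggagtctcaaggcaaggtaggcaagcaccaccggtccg
Cnga3: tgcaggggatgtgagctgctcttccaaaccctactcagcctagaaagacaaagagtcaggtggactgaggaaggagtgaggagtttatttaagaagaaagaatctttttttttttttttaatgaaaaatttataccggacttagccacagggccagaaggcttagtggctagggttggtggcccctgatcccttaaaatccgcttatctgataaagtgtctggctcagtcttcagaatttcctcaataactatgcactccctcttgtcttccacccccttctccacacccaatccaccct

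The Opn1sw window held AGGTCA at 2 places, beginning 202 and 132 bases before the start, and a TAATCT 49 bases before it. The Arr3 window held 3 copies of TAATCT, at 116, 102 and 10 bases before the start, and the Gnat2 window held a TAATCC on the minus strand at 19 bases before it. None of these motifs was in the Cnga3 window printed, in its other window or in the Pde6h window. Of all 32851 promoter windows of the same length, 7.06% held TAATCC, 8.19% TAATCT, 16.3% AGGTCA and 35.7% GGGCGG, and no cone window held the GC box. The cone windows had 44.0% to 51.0% G and C, against a median of 52.7% over all windows. A match describes the letters only and does not show binding.

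With the RPKM filter of the test (a mean of at least 1 over the libraries of the mark), 24 of the 29 peaks could be tested for H3K18La. At 25 mM glucose H3K18La was higher at 10 of these 24 peaks and lower at 0 (limma on log2 of RPKM + 0.5, Benjamini-Hochberg adjusted p under 0.05), where 37.3% of all 65614 peaks tested were called higher and 0.0869% lower. The 10 peaks belonged to 6 genes, Gnb3, Pde6h, Pde6c, Cngb3, Cnga3 and Gnat2, and were 5 promoter peaks and 5 others. For H3K27Ac, 20 of the 29 peaks could be tested, 7 were higher and 1 was lower, against 33.9% called higher and 0.164% lower of all 72442 peaks. The 7 belonged to Gnb3, Gnat2, Gngt2 and Cnga3. For both marks the share of cone peaks called higher was thus near that of all peaks. The counts depended on the scaling. When each library was centred on the median of all peaks, 1 cone peak was called higher for H3K18La, against 9.26% of all peaks, and 2 were higher and 1 lower for H3K27Ac, against 8.69% and 0.261%. With the reads in peaks as the denominator, 0 of the 29 peaks and 0 of all peaks passed for either mark.

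**Figure D2:**
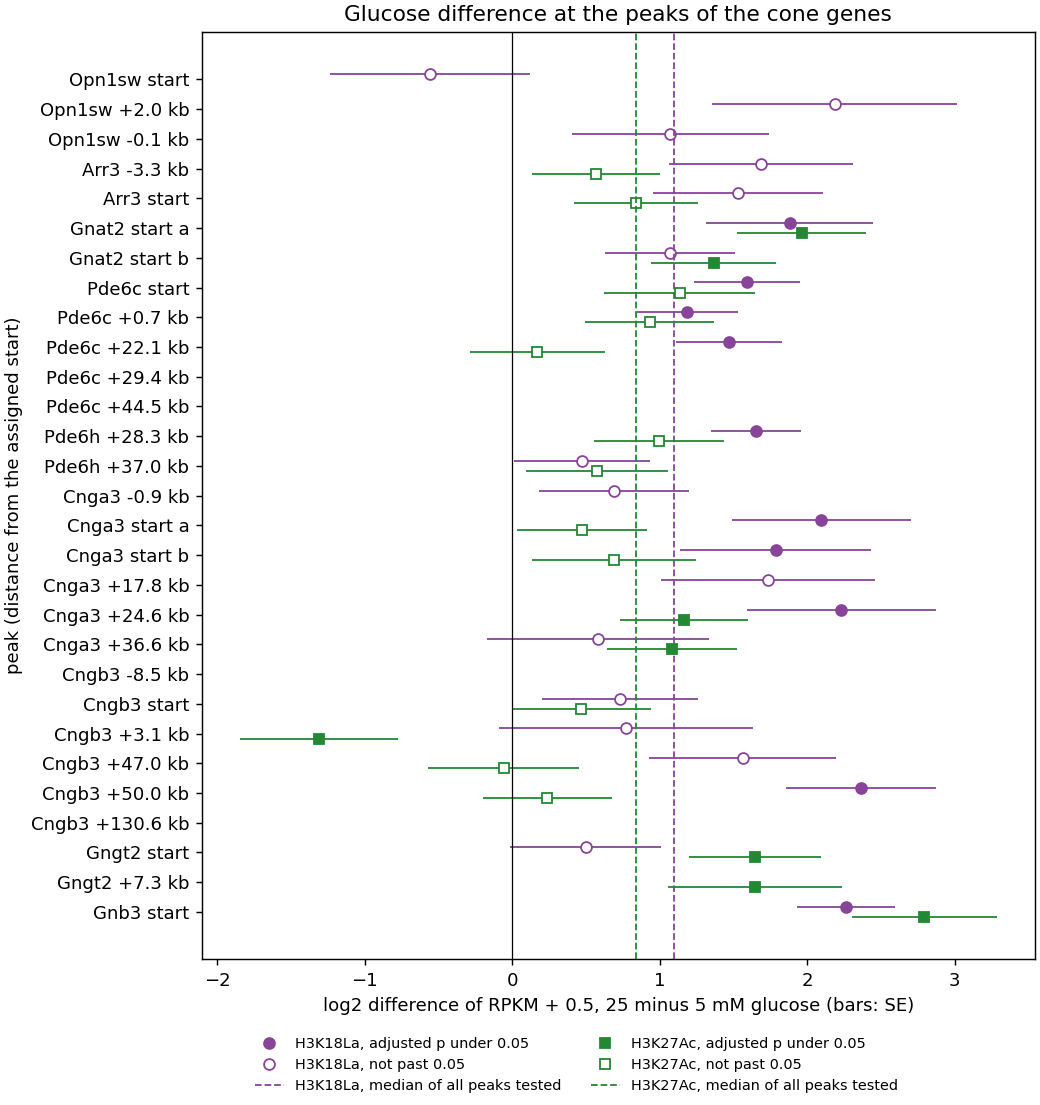
Log2 difference of RPKM + 0.5 between 25 mM and 5 mM glucose for each peak of the cone genes (horizontal axis, log2 units), with bars of 1 SE, circles for H3K18La, squares for H3K27Ac and filled symbols for an adjusted p under 0.05. Dashed lines give the median of all peaks tested, 1.10 for H3K18La and 0.84 for H3K27Ac, and peaks under the RPKM filter have no symbol. Gnb3 lies to the right of both lines for both marks, and Opn1sw at its start lies left of 0 for H3K18La.

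A simpler reading of the same values asked at how many peaks every 25 mM library lay above every 5 mM library. For H3K18La this held at 14 of the 29 peaks, against 36.6% of all 108253 peaks, and for H3K27Ac at 19 of the 29, against 53.0%. The opposite order was seen at 0 cone peaks for H3K18La, against 0.821% of all peaks, and at 2 for H3K27Ac, against 6.37%, both in or before Cngb3.

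At the receptor end of the chain, the gene for the short-wavelength cone opsin had the lowest promoter level of both marks at 25 mM among the 8 cone genes with a promoter peak, each taken at its promoter peak of highest mean. At the Opn1sw start (chr6:29380090-29381203) the H3K18La values were 1.70, 0.693 and 1.32 RPKM at 5 mM and 1.37, 1.10 and 0 at 25 mM, from 0 to 5 reads per library. The 2 glucose levels overlapped, and the log2 difference of -0.56 (SE 0.68) did not pass the test (adjusted p = 0.518). Without the third library at 25 mM it was 0.04. H3K27Ac at the same peak was 0.623 and 0.867 RPKM at 5 mM and 1.25 and 0.967 at 25 mM. This was too weak for the filter, as were the other 2 Opn1sw peaks for this mark. The peak 93 bases upstream of the far start of Opn1sw (chr6:29388561-29389213) held 2 H3K18La reads in all 5 mM libraries and 9 in all 25 mM libraries, a rate ratio of 4.33 with an exact 95% interval of 0.895 to 41.1. For H3K27Ac it held 1 read at 5 mM and 11 at 25 mM, a rate ratio of 7.93 with an interval of 1.15 to 341. Such intervals cover counting error only. In the intronic Opn1sw peak no H3K18La read was seen at 5 mM, and 1, 1 and 3 reads were seen at 25 mM, which is no more than the 3 reads that a count of 0 allows in a library.

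Arr3 encodes cone arrestin, which binds the activated opsin and ends its signalling. Over its starts (chrX, the peak that covers the window printed above) H3K18La was 0, 0.470 and 1.20 RPKM at 5 mM and 2.48, 2.60 and 1.64 at 25 mM. All libraries at 25 mM were above all at 5 mM, but the log2 difference of 1.53 (SE 0.58) missed the threshold (adjusted p = 0.0561). H3K27Ac was 1.69 and 1.83 RPKM at 5 mM and 3.27 and 3.83 at 25 mM, again without overlap and again not past the threshold (log2 difference 0.84, SE 0.42, adjusted p = 0.101). The intergenic peak at -3297 bases from the Arr3 start had log2 differences of 1.69 (SE 0.62, adjusted p = 0.0514) for H3K18La and 0.57 (SE 0.43, adjusted p = 0.290) for H3K27Ac.

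Cone transducin is made of the alpha subunit Gnat2, which activates the phosphodiesterase, and the subunits Gnb3 (beta) and Gngt2 (gamma). Gnb3, which is also used by ON bipolar cells, had the highest level of both marks at 25 mM among the 12 cone promoter peaks. Its H3K18La was 2.63, 2.80 and 1.89 RPKM at 5 mM and 20.4, 12.7 and 9.36 at 25 mM, and its H3K27Ac was 2.67 and 4.47 against 41.2 and 17.7. The groups were far apart in both marks, and in both the first library at 25 mM was the highest. The log2 difference was 2.26 (SE 0.33, adjusted p = 0.000751) for H3K18La and 2.79 (SE 0.49, adjusted p = 8.26e-06) for H3K27Ac. Centred on the median of all peaks, these became 1.63 (adjusted p = 0.0129) and 2.36 (adjusted p = 0.0281), and scaled to reads in peaks 0.96 (adjusted p = 0.349) and 1.61 (adjusted p = 0.121). Among all promoter peaks of the series, Gnb3 stood at percentile 98.4 for H3K18La and 93.5 for H3K27Ac at 25 mM.

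Gnat2 had a peak over its main starts and a second peak over an internal start, chr3:108094448. At the main starts H3K18La was 0.655, 0.666 and 0 RPKM at 5 mM and 4.92, 1.70 and 2.33 at 25 mM, and H3K27Ac was 0.639 and 0.778 against 5.38 and 3.26. Both marks were higher without overlap, with log2 differences of 1.88 (SE 0.57, adjusted p = 0.0232) and 1.96 (SE 0.44, adjusted p = 0.000547). The H3K18La call was lost without the first library at 25 mM, or without the third, with adjusted p up to 0.146. At the second peak the H3K18La difference of 1.07 (SE 0.44) did not pass (adjusted p = 0.0739), and the H3K27Ac difference of 1.36 (SE 0.42) did (adjusted p = 0.00935), with 1.09 and 1.52 RPKM at 5 mM and 4.59 and 3.68 at 25 mM.

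Gngt2 passed for H3K27Ac and not for H3K18La. At its promoter peak (chr11:95842920-95844291) H3K27Ac was 0.843 and 0.704 RPKM at 5 mM and 3.85 and 3.14 at 25 mM, a log2 difference of 1.65 (SE 0.45, adjusted p = 0.00367). H3K18La there was 0.691, 1.83 and 2.68 RPKM at 5 mM and 1.11, 3.41 and 3.44 at 25 mM. These groups overlapped, and the difference of 0.50 (SE 0.51) did not pass (adjusted p = 0.446). The test of the difference between the marks did not pass either (log2 -1.15 for H3K18La minus H3K27Ac, unadjusted p = 0.145). The peak in the 5' UTR of Gngt2 was also higher for H3K27Ac, with 0 and 0.854 RPKM at 5 mM and 1.84 and 2.32 at 25 mM (log2 difference 1.64, SE 0.59, adjusted p = 0.0232).

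The cone phosphodiesterase has the catalytic subunit Pde6c, which breaks down cyclic GMP, and the inhibitory gamma subunit Pde6h. Of the 5 Pde6c peaks, 3 carried more H3K18La at 25 mM. At the promoter (chr19, over both annotated starts) the values were 1.18, 2.07 and 1.83 RPKM at 5 mM and 5.05, 5.28 and 8.08 at 25 mM, and the groups did not overlap (log2 difference 1.59, SE 0.36, adjusted p = 0.00611). In the intron 725 bases downstream they were 1.96, 2.07 and 1.83 against 3.79, 5.90 and 5.86 (1.19, SE 0.34, adjusted p = 0.0193), and in the intron 22098 bases downstream 1.73, 1.06 and 1.35 against 4.03, 4.65 and 5.35 (1.47, SE 0.36, adjusted p = 0.00922). The spread among the libraries of a level was small at these peaks compared with the step between levels. H3K27Ac at the Pde6c promoter was 0.573 and 0.798 RPKM at 5 mM and 2.07 and 2.11 at 25 mM, a difference of 1.13 (SE 0.51) that missed the threshold (adjusted p = 0.0696). In the introns 725 and 22098 bases downstream the H3K27Ac differences of 0.93 (SE 0.44, adjusted p = 0.0800) and 0.17 (SE 0.46, adjusted p = 0.784) did not pass. The other 2 peaks of Pde6c, 29377 and 44483 bases downstream, were under the filter for both marks, with 0 to 6 reads in any library.

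The Pde6h intronic peak had the highest mean H3K18La of all 29 peaks at 5 mM and, level with Gnb3, at 25 mM. The H3K18La values were 6.68, 3.51 and 3.03 RPKM at 5 mM and 16.7, 12.4 and 13.7 at 25 mM, and the H3K27Ac values were 2.85 and 3.21 against 6.53 and 6.56. Neither mark showed overlap between glucose levels, and the H3K27Ac pairs were nearly equal within a level. The log2 difference was 1.65 (SE 0.31, adjusted p = 0.00229) for H3K18La and 1.00 (SE 0.44, adjusted p = 0.0627) for H3K27Ac, the latter not past the threshold. The exonic Pde6h peak passed for neither mark, with log2 differences of 0.47 (SE 0.46) and 0.57 (SE 0.48).

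The cone cyclic nucleotide-gated channel is formed by Cnga3 and Cngb3, and mutations in either cause loss of cone vision. At the first start of Cnga3 H3K18La was 0, 2.76 and 0.956 RPKM at 5 mM and 3.30, 6.39 and 6.57 at 25 mM (log2 difference 2.10, SE 0.61, adjusted p = 0.0200). In the intron 24603 bases downstream it was 3.79, 1.54 and 0 RPKM at 5 mM and 5.43, 7.54 and 8.99 at 25 mM (2.23, SE 0.64, adjusted p = 0.0190). The groups were separate at both peaks, though the 5 mM libraries were widely spread, and both calls were lost without the second or the third library at 25 mM (adjusted p up to 0.0694). The peak over the more downstream starts, which holds the window printed above, had 0.451, 0.276 and 0 RPKM at 5 mM and 0.969, 2.69 and 2.73 at 25 mM (1.79, SE 0.65, adjusted p = 0.0482), and it passed in none of the 4 fits without 1 library in which it could be tested. The Cnga3 peaks at -867, 17802 and 36626 bases did not pass for H3K18La. Their log2 differences were 0.69 (SE 0.51, adjusted p = 0.290), 1.73 (SE 0.73, adjusted p = 0.0792) and 0.58 (SE 0.75, adjusted p = 0.545). For H3K27Ac the Cnga3 promoter peaks did not pass, the first start having 1.80 and 1.25 RPKM at 5 mM and 2.71 and 1.92 at 25 mM (0.47, SE 0.44, adjusted p = 0.393). H3K27Ac was higher in the introns 24603 and 36626 bases downstream, by 1.16 (SE 0.43, adjusted p = 0.0282) and 1.08 (SE 0.44, adjusted p = 0.0445). At the second of these the 5 mM libraries held 3 reads in all and the 25 mM libraries 11, a rate ratio of 2.64 with an exact 95% interval of 0.698 to 14.8.

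Cngb3, the modulatory channel subunit, did not pass at its promoter for either mark. H3K18La was 0.321, 1.70 and 0.998 RPKM at 5 mM and 1.03, 2.17 and 2.51 at 25 mM (log2 difference 0.73, SE 0.53, adjusted p = 0.283), and H3K27Ac was 1.10 and 1.31 against 1.79 and 1.92 (0.47, SE 0.47, adjusted p = 0.435). In the intron 49971 bases downstream H3K18La was 1.19, 0.972 and 0 RPKM at 5 mM and 3.84, 5.58 and 5.94 at 25 mM (2.36, SE 0.51, adjusted p = 0.00474). These rest on 3 reads at 5 mM and 19 at 25 mM, a rate ratio of 6.09 with an exact 95% interval of 1.79 to 32.1. H3K27Ac at that intron was already 4.08 and 3.65 RPKM at 5 mM, and 3.50 and 6.11 at 25 mM, so these groups overlapped (0.24, SE 0.44, adjusted p = 0.681).

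The only cone peak that was called lower at 25 mM was the intron 3087 bases downstream of the Cngb3 start, for H3K27Ac. Its values were 1.76 and 2.45 RPKM at 5 mM and 0.211 and 1.02 at 25 mM, from 5, 10, 1 and 5 reads (log2 difference -1.31, SE 0.54, adjusted p = 0.0458). It failed in each of the 3 fits without 1 library in which it could be tested, with adjusted p from 0.0602 to 0.464. H3K18La at that peak was 0.721, 0.880 and 0 RPKM at 5 mM and 0, 2.24 and 2.56 at 25 mM and overlapped between levels. The remaining Cngb3 peaks passed for neither mark, and that in the intron 130551 bases downstream was under the filter for both. The one at -8474 bases had an H3K27Ac rate ratio of 0.270 with an exact 95% interval of 0.0462 to 1.13, from 8 and 3 reads, and an H3K18La rate ratio of 2.56 (0.615 to 15.0), from 3 and 8 reads. In the intron 47026 bases downstream H3K18La had 3 reads at 5 mM and 17 at 25 mM, a rate ratio of 5.45 (1.58 to 29.02), and a log2 difference of 1.56 (SE 0.63) that missed the threshold (adjusted p = 0.0713).

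**Figure D3:**
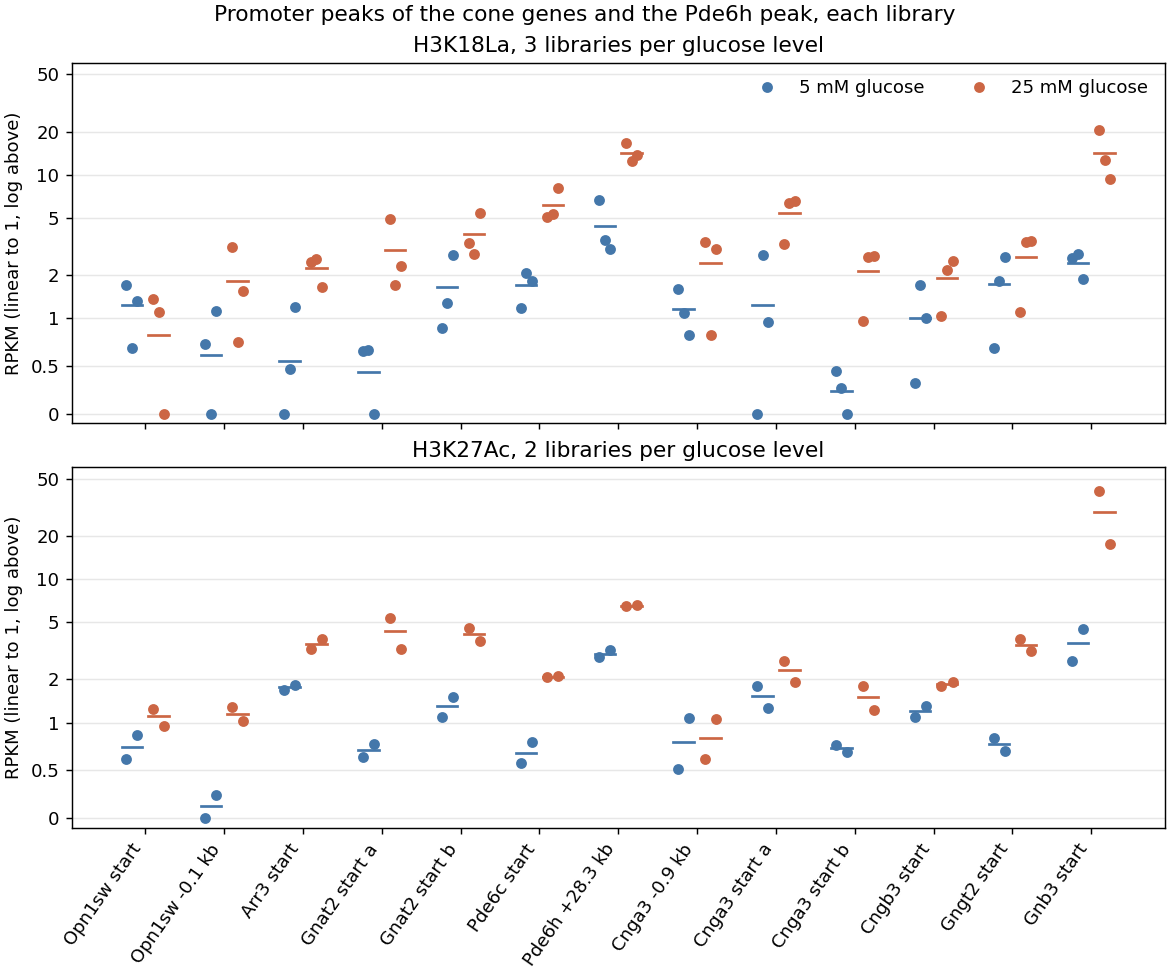
RPKM of each library (points) and the mean of each group (lines) at the 12 promoter peaks and the Pde6h intronic peak, at 5 mM and 25 mM glucose, for H3K18La above and H3K27Ac below, on an axis that is linear to 1 RPKM and logarithmic above. The letters a and b tell apart 2 peaks over starts of the same gene. Gnb3 reaches 20.4 RPKM for H3K18La and 41.2 for H3K27Ac, while the Opn1sw promoter peaks reach at most 3.12.

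Many of the calls were lost when a library was left out, which also lowers the power of the test. For H3K27Ac such a fit has only 1 library at a glucose level. Without the first at 25 mM the median log2 difference of all H3K27Ac peaks tested was 0.82, against 0.84 with all libraries. Of the 10 H3K18La calls, 5 passed in all 6 fits that left out a library, namely the Gnb3 promoter, the Pde6h intron, the Pde6c promoter, the Pde6c intron 22098 bases downstream and the Cngb3 intron 49971 bases downstream. Leaving out the third library at 25 mM lowered the count to 5 peaks, where 26.8% of all peaks tested were then called higher, and leaving out the second lowered it to 6, where 24.5% were. None of the 7 H3K27Ac calls passed in all of its fits. Without the first 25 mM library 0 cone peaks passed, and 10 of 70435 peaks in all (0.0142%). Without the second 2 passed, against 1.37% of all peaks, and without the first library at 5 mM 5 passed, against 21.8%.

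Whether glucose moved the marks differently at these genes was tested as an interaction over all 10 libraries. At 0 of the 21 cone peaks tested, and 0 of 72467 peaks in all (0%), did the glucose difference of H3K18La differ from that of H3K27Ac at an adjusted p of 0.05. In limma, 1 cone peak had an unadjusted p under 0.05, where 5.04% of all peaks did. It was the Cngb3 intron 49971 bases downstream with a log2 value of 2.13, and its adjusted p in limma was 0.903. With voom on the recovered reads 5 cone peaks had an unadjusted p under 0.05, where 7.49% of all peaks did, and 0 passed the adjusted test. Calls in 1 mark and not in the other thus do not show that the marks differ in their response.

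The level of the 2 marks at 25 mM was compared in the same 10-library fit, a comparison added after the values were seen. Between antibodies RPKM depends on each assay's share of reads in peaks, so these differences are read against all peaks. The set of peaks may itself have been chosen from H3K18La alone, as said above. H3K18La exceeded H3K27Ac at 2 of the 21 cone peaks tested, against 2.07% of all peaks, and H3K27Ac exceeded H3K18La at 0 of the 21, against 24.6%. The median difference was 0.32 for the cone peaks and -0.54 for all peaks, on the log2 scale. With 1 promoter peak per gene, that of highest mean, H3K18La exceeded H3K27Ac at 1 and H3K27Ac exceeded H3K18La at 0 of the 7 cone promoters tested, against 0.403% and 63.7% of 12657 promoters, with medians of -0.13 and -1.92. The 2 peaks were the Pde6c promoter (6.14 ± 1.69 RPKM of H3K18La, SD, n = 3, against 2.09 ± 0.0331 of H3K27Ac, SD, n = 2, log2 difference 1.33, SE 0.41, adjusted p = 0.0275) and the Pde6h intron (14.3 ± 2.22 against 6.54 ± 0.0238, log2 difference 1.06, SE 0.37, adjusted p = 0.0479). At both, every H3K18La library at 25 mM was above both H3K27Ac libraries at 25 mM. Neither call held without either of the H3K27Ac libraries at 25 mM, nor without the second or the third H3K18La library at 25 mM, and the Pde6h call was also lost without the first at 25 mM or the second at 5 mM. Scaled to reads in peaks, 4 cone peaks were higher for H3K18La and 0 for H3K27Ac, while all peaks then split into 4376 and 3663. With voom 5 were higher and 1 lower, against 7.24% and 34.8% of all peaks.

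**Figure D4:**
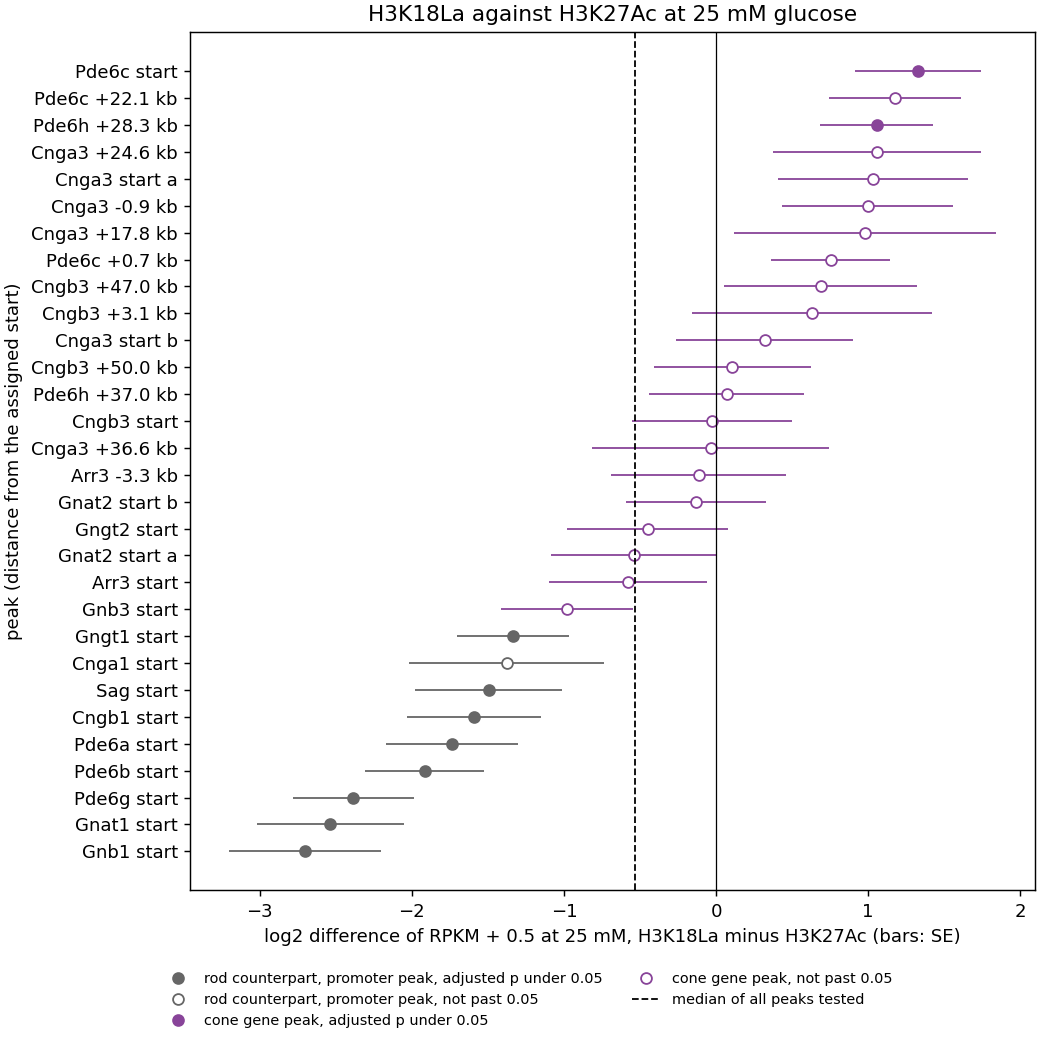
Log2 difference of RPKM + 0.5 between H3K18La and H3K27Ac at 25 mM glucose (horizontal axis, log2 units, bars of 1 SE) for the 21 cone gene peaks tested and for the promoter peaks of the 9 rod counterparts, with filled symbols for an adjusted p under 0.05. The dashed line is the median of all peaks tested, -0.54. The rod promoters lie between -2.70 and -1.34, left of every cone peak. The cone peaks include peaks outside promoters, and some promoters of the other lists, not drawn, also had values above the rod range.

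Rod versions of these proteins give a matched set. Sag, Gnat1, Pde6a, Cnga1, Cngb1, Gngt1 and Gnb1 were set beside Arr3, Gnat2, Pde6c, Cnga3, Cngb3, Gngt2 and Gnb3, taking for each gene the promoter peak whose mean over the 10 libraries was highest. For Gnat2 this is the peak over the internal start, not the one over the main starts. Pde6g, the rod partner of Pde6h, and Pde6b, the second catalytic subunit of rods, have no cone promoter peak to be set against. H3K27Ac was higher at the rod promoter than at the cone promoter in both 25 mM libraries for 6 of the 7 pairs, the median ratio being 9.99, and Gnb3 with Gnb1 was the exception, with a ratio of 1.10. For H3K18La the median ratio was 1.92, and the rod promoter was above the cone promoter in all 3 libraries at 25 mM for 3 of the 7 pairs, those of Sag, Cngb1 and Gngt1. At 5 mM the rod promoter was above the cone promoter in both H3K27Ac libraries for 7 of the 7 pairs, with a median ratio of 7.53, and in all 3 H3K18La libraries for 2 of the 7, with a median ratio of 0.968. With the Gnat2 peak over its main starts, a choice added after the values were seen, the H3K18La pairs in this order became 4 of 7 at 25 mM (median ratio 2.47) and 3 of 7 at 5 mM (1.21), and the H3K27Ac counts did not change (median ratios 9.56 and 8.17). Gnb3 was above Gnb1 for H3K18La in each of the 6 libraries, with a rod over cone ratio of 0.355 at 25 mM.

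All 9 rod promoters, those of Pde6b and Pde6g included, were higher at 25 mM for both marks, against 3 of the 8 cone promoters tested for H3K18La and 3 of the 7 tested for H3K27Ac (the same choice of peak). Over all genes, with 1 promoter peak taken in the same way, 32.6% of 10477 tested were higher for H3K18La and 59.1% of 12867 for H3K27Ac. With the Gnat2 peak over its main starts the cone counts were 4 of 8 and 3 of 7. The difference in counts between rod and cone genes was not tested. The log2 differences of the rod promoters ranged from 1.49 at Gngt1 to 2.59 at Gnat1 for H3K18La, and from 1.45 at Gngt1 to 2.44 at Gnat1 for H3K27Ac. The rod gene had the larger difference in 6 of 7 pairs for H3K18La and in 5 of 7 for H3K27Ac, with a median gap of 0.96 and 1.08 on the log2 scale (0.70 and 0.95 with the other Gnat2 peak). Gnb3 was above Gnb1 in both marks, and Gngt2 above Gngt1 for H3K27Ac. None of the 9 H3K27Ac calls at rod promoters held without the first or without the second library at 25 mM, whereas 7 of the 9 H3K18La calls passed in all 6 fits that left out a library, Gnb1 and Cnga1 being the exceptions. Whether a pair differed in its response was not tested. At 25 mM, H3K27Ac exceeded H3K18La at 8 of the 9 rod promoters, against 63.7% of the promoters of all genes, with log2 differences from -2.70 at Gnb1 to -1.34 at Gngt1. Their median of -1.74 was near that of all promoters, -1.92. Without the first H3K27Ac library at 25 mM this was so at 2 of them, Gnb1 and Pde6g, against 29.7% of the promoters of all genes and 7.80% of all peaks.

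**Figure D5:**
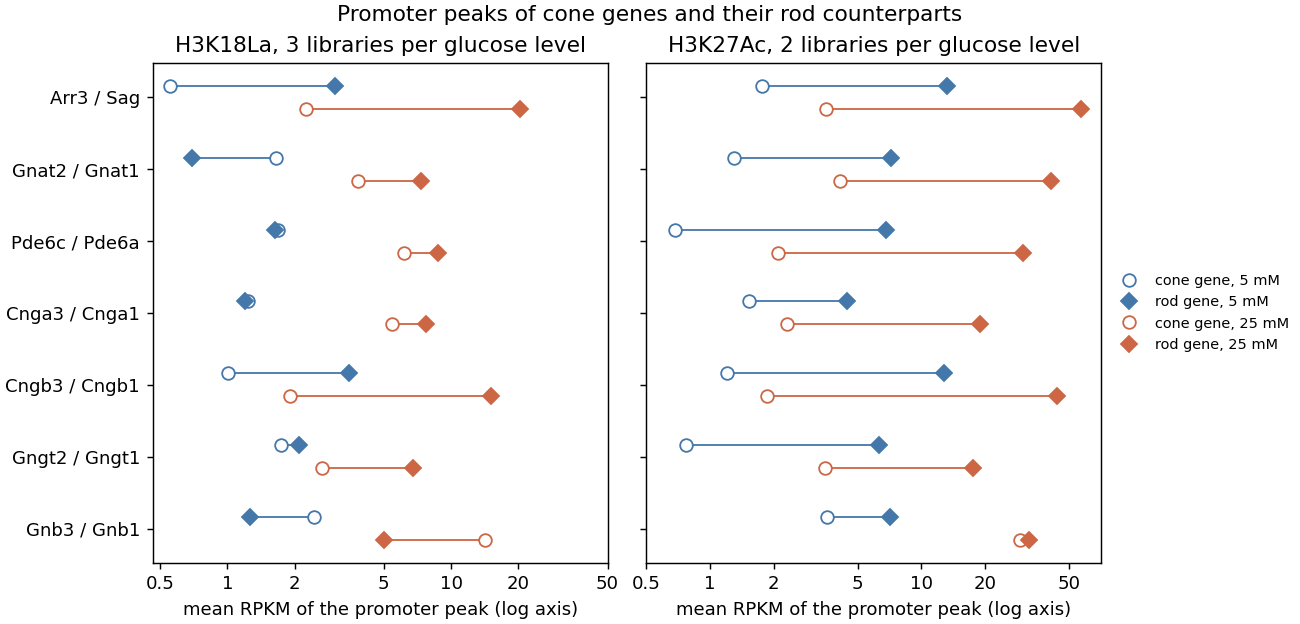
Mean RPKM of the promoter peak of each cone gene, chosen by its mean over all libraries (open circles) and of its rod counterpart (diamonds) at 5 mM and 25 mM glucose, on a logarithmic axis, for H3K18La (3 libraries per level) and H3K27Ac (2 libraries per level). For H3K27Ac at 25 mM the rod gene lies to the right in every pair, by a ratio of 1.10 for Gnb1 over Gnb3 and of 23.9 for Cngb1 over Cngb3.

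Other genes of the cascade were given as a list of 12, of which 11 had a promoter peak. Most serve both cones and rods, such as the guanylate cyclases and their activators and the recovery complex of Rgs9, while the exchangers Slc24a1 and Slc24a2 are the rod and the cone version. For H3K18La 10 of these were higher at 25 mM and 0 lower, and for H3K27Ac 11 were higher and 0 lower, against the 32.6% and 59.1% of all genes given above, with median log2 differences of 1.93 and 1.95. Without the first H3K27Ac library at 25 mM 0 of the 11 passed, and without the second 1 did. The largest H3K18La difference was at Guca1b, a guanylate cyclase activator (2.79), and the smallest at Slc24a2, the cone sodium, calcium and potassium exchanger (0.73, adjusted p = 0.265). For H3K27Ac the largest was at Guca1a (2.66) and the smallest again at Slc24a2 (1.43, adjusted p = 0.0177).

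Among 4 genes of cone identity, 2 were higher for H3K18La and 1 for H3K27Ac, of 3 tested for each mark. Over all genes the shares were the 32.6% and 59.1% given above. Opn1mw, the middle-wavelength cone opsin gene, was singled out after its values were seen. Its promoter had 2.34, 1.59 and 1.82 RPKM of H3K18La at 5 mM and 6.69, 5.25 and 9.14 at 25 mM (log2 difference 1.62, SE 0.34, adjusted p = 0.00434). Its H3K27Ac was 1.33 and 2.78 against 3.20 and 3.87 and did not pass (0.72, SE 0.42, adjusted p = 0.164). At 25 mM the H3K18La value of every library was higher at Opn1mw than the highest at the Opn1sw start. Thrb, which directs middle-wavelength opsin expression, was higher for both marks (1.76, adjusted p = 0.000696, and 1.33, adjusted p = 0.0441). Rxrg passed for neither (0.58 for each mark, with the sign turned for both when scaled to reads in peaks), and Sall3 was under the filter. Of 6 photoreceptor regulators all 6 were higher for both marks, against the same 32.6% and 59.1%. For H3K18La they ranged from 1.27 at Otx2, which turned to -0.090 when scaled to reads in peaks, to 3.83 at Rorb, and for H3K27Ac from 1.73 at Otx2 to 2.40 at Crx. The H3K18La call at Otx2 (adjusted p = 0.0335) passed in 1 of the 6 fits that left out a library, with adjusted p up to 0.110, while those at Crx, Rorb and Thrb passed in all 6. For H3K27Ac 0 of the 6 regulators, and not Thrb, passed without the first or without the second library at 25 mM.

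Markers of other retinal cells were listed too. Their counts stand against the same 32.6% for H3K18La and 59.1% for H3K27Ac of the promoters of all genes called higher. The H3K27Ac calls rest on 2 libraries per level. The 8 rod markers, which were higher for both marks, add no peak to those above, since 6 are rod counterparts and 2, Nrl and Nr2e3, are among the regulators. Of the Müller glia markers 7 of 8 had a promoter peak, of which 0 of 5 tested were called for H3K18La and 3 of 6 were higher for H3K27Ac, their summed level going from 5.89 to 13.3 RPM at 5 mM to 18.7 to 22.9 at 25 mM for H3K18La and from 22.2 to 26.2 up to 54.1 to 66.3 for H3K27Ac. Of the bipolar markers, 6 of 8 had a promoter peak, and 5 of 6 tested were higher for H3K27Ac, Otx2 among them. For H3K18La only 1 could be tested, that of Otx2, which was higher. Otx2 is counted among the regulators above for both marks. The sums were 4.42 to 7.11 against 7.12 to 8.43 for H3K18La and 8.56 to 13.7 against 36.0 to 52.0 for H3K27Ac. The amacrine list had 3 promoter peaks, of which 1 could be tested for each mark and was higher. None of the 4 ganglion cell or 2 horizontal cell promoter peaks could be tested for H3K18La. For H3K27Ac 1 of 1 tested was higher in the ganglion cell list and 1 of 2 in the horizontal cell list. The single microglia peak did not pass for H3K18La and could not be tested for H3K27Ac. No listed promoter peak was at 0 reads in all libraries of a mark. At 25 mM H3K27Ac exceeded H3K18La at 1 of 6 Müller glia promoters tested and 1 of 3 of cone identity. It did so at 0 of 1 for ganglion cells and for microglia. The counts were 9 of 11 for the other cascade genes, 5 of 6 for the regulators and 4 of 5 for the bipolar markers. For amacrine and for horizontal cells they were 1 of 1. A low count was thus not particular to the cone promoters. The part of cell composition in the differences at the cone genes was not tested.

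Summed over the 12 cone promoter peaks, H3K18La was 15.6, 21.4 and 19.9 RPM at 5 mM and 81.9, 65.7 and 65.7 at 25 mM, a ratio of 3.75 between the means of 19.0 ± 2.99 and 71.1 ± 9.35 (SD, n = 3). H3K27Ac was 18 and 23.8 against 132 and 71.1, a ratio of 4.86 between 20.9 ± 4.10 and 101.7 ± 43.2 (SD, n = 2). All libraries at 25 mM were above all at 5 mM. Over all 17144 promoter peaks the same ratios were 2.80 and 2.85. Gnb3 alone held 22.2% to 39.4% of the H3K18La reads of the cone promoters at 5 mM and 33.3% to 58.4% at 25 mM, and 34.6% and 43.9% against 73.0% and 58.1% for H3K27Ac. Without Gnb3 the ratios were 2.86 and 2.60. As a share of reads in peaks, the cone promoters without Gnb3 had ratios of 1.05 and 1.06, and their groups overlapped in both marks. All 17144 promoter peaks had ratios of 1.02 and 1.18 on that scale.

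The levels at 25 mM ran, for H3K18La over the promoter peak of each gene chosen as above (for Gnat2 that of the internal start), from Gnb3 (14.2 ± 5.67 RPKM, SD, n = 3) to Pde6c (6.14 ± 1.69), Cnga3 (5.42 ± 1.84), Gnat2 (3.85 ± 1.38), Gngt2 (2.65 ± 1.33), Arr3 (2.24 ± 0.52), Cngb3 (1.90 ± 0.773) and Opn1sw (0.825 ± 0.726). Each neighbour in this order overlapped the next between libraries, except that Gnb3 lay above Pde6c in every library. For H3K27Ac the order was Gnb3 (29.4 ± 16.7, SD, n = 2), Gnat2 (4.13 ± 0.640), Arr3 (3.55 ± 0.392), Gngt2 (3.50 ± 0.501), Cnga3 (2.32 ± 0.554), Pde6c (2.09 ± 0.0331), Cngb3 (1.85 ± 0.0896) and Opn1sw (1.11 ± 0.198). In this order Gnb3, Gngt2, Pde6c and Cngb3 each lay above the next gene in both libraries, and the other neighbours overlapped. The Pde6h intronic peak, which is no promoter peak, had 14.3 ± 2.22 RPKM of H3K18La, overlapping Gnb3. At 25 mM, 7 of these 8 H3K27Ac levels lay under the median of all promoter peaks, 7.79 RPKM, whereas 6 of the 8 H3K18La levels lay above it, 1.94 RPKM.

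The promoter peaks of other genes whose log2 values over the 10 libraries were most like the mean of the cone promoter peaks were those of 4930434O05Rik (Pearson r = 0.985), Jazf1 (0.982) and Pipox (0.982), out of 11349 promoter peaks with a mean of at least 2 RPKM. The 10 libraries share the step in reads in peaks between glucose levels, so high values of r are common in these data and are given as a description.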

How the data were processed

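The authors processed the CUT&Tag reads with nf-core/cutandrun against GRCm38, called peaks with MACS, merged consensus peaks and annotated them with ChIPseeker 1.34.1 (promoter from -1000 to 500 bp of a start). The methods describe 1 merged set from H3K18La in retinas of different ages, which has as many peaks as the table used here, and another from both marks in explants. Which of them the table holds is not given in the sources used here. The values the authors deposited are RPKM per peak and library, from reads counted with csaw, with replicates kept apart. A second deposited table, the authors' own edgeR 3.40.2 comparison of H3K18La (fold changes, p-values and group means), was not used. Dividing each value by the value of 1 read gave whole reads for 100% of values (tolerance 0.001 reads) and denominators of 1358008 to 7424470. Whether the authors' normalization over 10000 bp windows enters these denominators is not given in the sources used here.

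All peaks were fitted, on log2(RPKM + 0.5), with limma 3.58.1 in R 4.3.3, for each mark (mean RPKM of at least 1) and for all 10 libraries together (glucose, mark and their interaction), with Benjamini-Hochberg adjustment over all peaks tested. This log2 scale understates the change of low peaks. Rate ratios of pooled reads have exact 95% intervals. Tables and figures were made in Python 3.11.15 with numpy 2.4.6, pandas 2.3.3, scipy 1.17.1 and matplotlib 3.10.9, and the fits were tested on simulated data. The alternatives were other filters, pseudocounts, scalings and thresholds, robust moderation, a replicate block, leaving out each library, and, added after seeing the data, voom on the recovered reads. The comparison of marks at 25 mM was also added then. One gene of the rod lists is not reported here. The members and lists were chosen with earlier results of these data known. Named were all 29 peaks of the 9 genes, the rod counterparts, the highest and lowest difference of the shared cascade, cone identity and regulator lists, and the 3 promoter peaks nearest in pattern.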

Additional observations from a re-analysis of the deposited data

How the results depend on the processing

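Of 1443 values of single named peaks under other settings, 1123 kept their direction and side of the threshold, 263 lost a call, 23 gained one and 34 changed sign, none of these past the threshold. The 10 H3K18La calls became 6 with a pseudocount of 0.1, 1 when centred on the median of all peaks, 0 when scaled to reads in peaks, 5 at a threshold of 0.01, and 5 to 12 without 1 library. Over all 65614 peaks tested, the 24482 calls higher became 18936 with a pseudocount of 0.1 and 6075 when centred on the median. They became 0 when scaled to reads in peaks, 12367 at a threshold of 0.01, and 15542 to 24345 without 1 library. The 8 H3K27Ac calls (7 higher, 1 lower) became 0 without a filter on low peaks (0 of 108253 in all), 3 centred on the median, 0 scaled to reads in peaks, 5 centred on the weakest decile, and 4 at a threshold of 0.01. Over all 72442 peaks tested, the 24579 calls higher and 119 lower became 6293 and 189 centred on the median. They became 0 scaled to reads in peaks, 22571 and 172 centred on the weakest decile, and 9826 and 14 at a threshold of 0.01. The interaction gave 0 calls under every alternative run. The 2 peaks with more H3K18La than H3K27Ac at 25 mM became 1 without a filter, 0 with a pseudocount of 0.1, 4 scaled to reads in peaks, 1 centred on the weakest decile, 6 with voom (5 with more H3K18La and 1 with more H3K27Ac), 0 at a threshold of 0.01, and 0 to 3 without 1 library. Over all peaks the 1503 with more H3K18La became 1162 without a filter, 646 with a pseudocount of 0.1 and 4376 scaled to reads in peaks. They became 1787 centred on the weakest decile, 5248 with voom and 236 at a threshold of 0.01. At the rod promoters the differences between marks at 25 mM stayed below 0 under all settings. They shrank to as little as -0.43 at Gngt1, -0.47 at Cnga1 and -0.56 at Sag, and to -1.61 at Gnat1. The cause was not tested in any of these. The summed H3K18La ratio of 3.75 became 1.36 scaled to reads in peaks, 2.41 centred on the median, 2.86 without Gnb3, 3.05 over the other 17 peaks, and 3.44 to 4.00 without 1 library. The summed H3K27Ac ratio of 4.86 became 1.96 scaled to reads in peaks, 2.60 without Gnb3, 1.64 over the other 17 peaks, and 3.397 to 6.32 without 1 library, the lowest without the first at 25 mM.

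With the replicate number as a block, H3K18La had 9 calls, H3K27Ac 4 and the comparison of marks 1, where 36.4%, 10.9% and 1.73% of all peaks were called in that direction. The lower H3K27Ac call in the Cngb3 intron at 3087 bases was lost (adjusted p = 0.0846 in limma). Deviations of libraries with the same number correlated at 0.0307, 0.00757 and 0.0177 for H3K18La and 0.0211 for H3K27Ac. In H3K18La, 2 of the 3 libraries at 5 mM correlated best with the 25 mM library of their own number. With 2 libraries per level, the H3K27Ac value is the same for every pair but for its sign. Counting error at these depths lowers any such correlation, so the values do not decide whether libraries with the same number were paired. The edgeR alternative was not run, since the deposited unit is RPKM.

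Scaled to reads in peaks, the H3K18La difference changed sign at the Cnga3 peaks at -867 (-0.41) and 36626 bases (-0.42), Rxrg (-0.43), the second Gnat2 start (-0.11), the Cngb3 start (-0.28), Slc24a2 (-0.27), the Pde6h exon (-0.63), the Gngt2 start (-0.64), Otx2 (-0.090) and the Pde6c intron at 725 bases (-0.057). Likewise the H3K27Ac difference did at both Cnga3 starts (-0.56 and -0.19), Rxrg (-0.35), the Cngb3 start (-0.50), the Cngb3 intron at 49971 bases (-0.91), the Pde6h intron (-0.15) and exon (-0.36), the Pde6c introns at 725 (-0.078) and 22098 bases (-0.79), and Arr3 upstream (-0.46) and at its start (-0.23). Centred on the median, H3K18La changed sign at the Cnga3 peak at 36626 bases (-0.048), Rxrg (-0.047), the Pde6h exon (-0.16) and the Gngt2 start (-0.13), and H3K27Ac at the Cngb3 intron at 49971 bases (-0.20) and the Pde6c intron at 22098 bases (-0.27). That Pde6c intron was -0.023 centred on the weakest decile, and without 1 library it ranged from -0.27 to 0.62. Without 1 library, the H3K18La difference ranged from -0.81 to 0.039 at the Opn1sw start and from -0.49 to 1.32 at the Cnga3 peak at 36626 bases, and the H3K27Ac difference from -0.12 to 0.60 at the Cngb3 intron at 49971 bases and from -0.49 to 0.37 at that at 47026 bases.

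The depth limits the weaker peaks. Of the 29 peaks, 12 had at most 3 reads in every 5 mM library for H3K18La and 6 for H3K27Ac.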
